A study of Mus musculus with 27 samples.

Results

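The chemokines, the interleukins and their receptors were examined in RNA-seq counts from epithelial scrapings of the mouse colon. Members were the protein-coding genes whose symbols begin with Ccl, Cxcl, Ccr, Cxcr or Il and a number, apart from Ccl5, Il17rb, Il25 and Il4i1, which were set aside by name. Of 134 such genes, 4 were set aside, 69 did not reach 10 counts in at least 3 of the 27 libraries, and 61 were members. The annotation holds 13792 protein-coding genes past the same minimum among 46078 gene rows. Il27ra was a member but did not pass the filter on low counts, so 60 members were tested.

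All 27 mice were male C57BL/6, with 3 mice in each of 9 groups, and each library came from 1 mouse. The control mice received sesame oil vehicle by oral gavage. The other 8 groups received TCDD, the dioxin 2,3,7,8-tetrachlorodibenzo-p-dioxin and a persistent ligand of the aryl hydrocarbon receptor (AhR), in sesame oil, the 4 lower doses being 0.01, 0.03, 0.1 and 0.3 μg/kg and the 4 higher 1, 3, 10 and 30 μg/kg. Gavage was repeated every 4 days, 7 times in all, from 28 days of age, and the colon was scraped on day 28, at 56 days of age. The libraries hold 9305441 to 14371035 counts assigned to genes, so that 3 counts correspond to 0.209 to 0.322 CPM (counts scaled to library size). The AhR targets Cyp1a1, Cyp1b1, Ahrr, Tiparp and Nqo1 all rose at 30 μg/kg, and Cyp1a1 went from a mean of 0.0655 CPM in vehicle to 2200 CPM. Epithelial markers were abundant, and their 10 genes summed to 13391 to 13503 CPM in vehicle and 13193 to 15461 CPM at 30 μg/kg. The summed smooth muscle list was 46.0 to 87.6 CPM in vehicle and 96.4 to 639 CPM at 30 μg/kg. Single mice at 0.01, 0.03, 0.3 and 1 μg/kg reached 251, 270, 314 and 293 CPM.

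Chemokines are small secreted proteins that draw leukocytes along a gradient through G protein-coupled receptors. In the gut, the epithelium secretes several that place lymphocytes and dendritic cells in or beneath the epithelial layer. Interleukins signal through paired receptor chains, mostly to Janus kinases and STAT proteins or, for the interleukin 1 and 17 families, to MyD88 or ACT1 and NF-κB. Epithelial cells carry many of the receptors, and respond with antimicrobial proteins, mucus and repair. In bulk scrapings, fewer cells of a type and less RNA per cell cannot be told apart.

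The promoter windows of Cxcl14, Ccl20 and Il1r1, members called at 30 or 10 μg/kg, are shown first, because ligand-bound AhR and its partner ARNT bind the dioxin response element, whose core is GCGTG. Each line is the 250 bases before the annotated start, taken from RefSeq on build GRCm38.p6, written 5′ to 3′ on the strand of the gene, with GCGTG or its reverse complement CACGC in capitals. The Cxcl14 window is chr13:56296552-56296801 on the minus strand, that of Ccl20 is chr1:83116516-83116765 on the plus strand, and those of Il1r1 are chr1:40224830-40225079 and chr1:40266336-40266585 on the plus strand.
Cxcl14: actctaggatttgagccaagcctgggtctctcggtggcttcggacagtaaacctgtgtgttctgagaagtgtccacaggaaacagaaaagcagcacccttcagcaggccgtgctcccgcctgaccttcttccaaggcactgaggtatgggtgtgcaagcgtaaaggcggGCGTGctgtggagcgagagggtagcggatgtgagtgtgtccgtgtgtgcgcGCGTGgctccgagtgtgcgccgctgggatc
Ccl20: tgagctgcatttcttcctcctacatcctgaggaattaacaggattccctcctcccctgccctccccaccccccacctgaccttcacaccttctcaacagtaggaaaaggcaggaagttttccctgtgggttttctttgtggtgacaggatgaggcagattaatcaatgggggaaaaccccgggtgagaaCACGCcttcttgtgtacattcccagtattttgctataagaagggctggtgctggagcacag
Il1r1, first start: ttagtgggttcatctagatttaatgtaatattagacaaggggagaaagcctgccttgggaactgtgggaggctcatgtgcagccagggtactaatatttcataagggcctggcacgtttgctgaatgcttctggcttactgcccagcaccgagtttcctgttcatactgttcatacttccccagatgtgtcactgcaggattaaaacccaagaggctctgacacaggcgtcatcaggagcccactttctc
Il1r1, second start: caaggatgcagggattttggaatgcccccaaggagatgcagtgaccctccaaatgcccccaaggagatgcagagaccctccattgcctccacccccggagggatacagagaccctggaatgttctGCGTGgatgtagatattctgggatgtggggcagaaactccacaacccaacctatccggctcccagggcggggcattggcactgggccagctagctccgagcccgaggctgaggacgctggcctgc

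The Cxcl14 window holds 2 copies of the core, the nearer beginning 30 bases before the start. The Ccl20 window holds 1 copy, beginning 61 bases before the start, and the second Il1r1 window holds 1, beginning 125 bases before the start. The first Il1r1 window holds no copy. Cxcl16 was not among the members with a window. Counting also the 50 bases after the start, 19 of the 48 members with a window (39.6%) held the core, beside 9500 of 27025 genes in the table (35.2%). A match of these letters is a description of the window and no measure of binding.

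More of the receptor genes than of the ligand genes reached the count minimum. Of 57 receptor genes, counted by symbol and so with the secreted receptor Il22ra2, 37 (64.9%) were members, and of 73 ligand and soluble inhibitor genes, 24 (32.9%) were. The minimum is on raw counts, which grow with transcript length, and per kilobase of exon the median was 0.929 CPM for the ligand and inhibitor members and 0.616 CPM for the receptor members. No count was found in any library for 12 ligand genes and 1 receptor gene. Il17a and Il22 had 0 counts in all 27 libraries. Il6, Il10 and Il1b reached at most 2, 3 and 4 counts in a library. The neutrophil chemokine gene Cxcl1 reached 19 counts, and Ccr6, the receptor of Ccl20, reached 8. Just inside the count minimum were Cxcr6, Il27ra and Il33, each with 10 counts in 3 libraries and at most 12, 12 and 15. Just outside were Ccl21a and Cxcl5, with 10 counts in 2 libraries and at most 24 and 21. Ccl21b, Ccl27b and Il11ra2 are near-identical to other genes, and reads with more than 1 alignment were not counted, so their 0 counts are uncertain. The 0 counts of Il22 are uncertain in the same way, since it has a close paralogue, Iltifb.

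**Figure D1:**
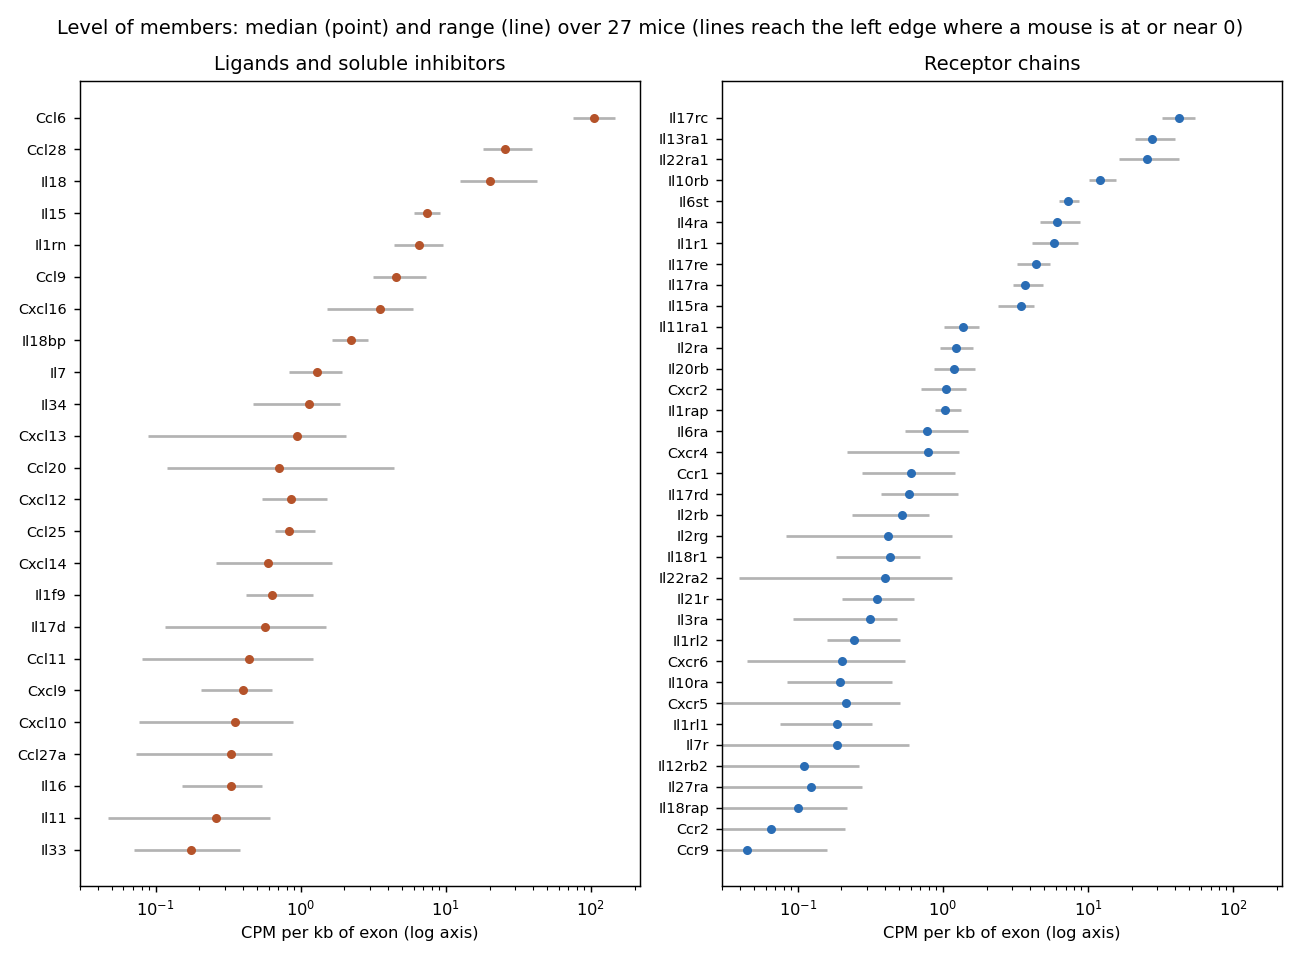
Level of the members in CPM per kilobase of exon on a log axis, with the median over 27 mice as a point and the range as a line, for ligands and soluble inhibitors on the left and receptor chains on the right. Ccl6 stands highest (mean 106.7), and the ranges of several leukocyte receptors such as Ccr2 and Ccr9 reach the left edge because a mouse is at or near 0.

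Between genes, levels were compared as CPM per kilobase of exon (mean of 27 mice). Ccl6, a CC chemokine of rodents, was highest at 106.7. Next were Il17rc at 42.1, the chain that joins IL-17RA in the receptor for IL-17A and IL-17F, and Il13ra1 at 28.7, a chain of the receptors for IL-13 and IL-4. Il22ra1, the epithelial chain of the IL-22 receptor, stood at 25.9, and Ccl28, a mucosal chemokine that draws IgA plasma cells through CCR10, at 25.1. Il18, an epithelial cytokine that is stored as a precursor, followed at 21.6, Il10rb at 12.3 and Il15 at 7.37. Between the neighbours Il13ra1, Il22ra1, Ccl28 and Il18, the ranges over the 27 mice overlapped. Ccr9 was lowest at 0.0586 per kilobase. The median of all tested genes was 3.74, and 14 members lay above it.

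Ligands and their receptors were set side by side on the same scale, the mean CPM per kilobase of exon. For IL-22, the receptor chains Il22ra1 (25.9) and Il10rb (12.3) were above the median of all tested genes. Il22 itself had no count, which is uncertain because of its paralogue. For IL-17A, Il17rc (42.1) was above that median and Il17ra (3.74) at it, and Il17a had no count. Il15 was at 7.37 per kilobase, Il15ra at 3.49 and Il2rb, a signalling chain of its receptor on lymphocytes, at 0.495.

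In 4 chemokine pairs, both sides lay under the median of all tested genes. Cxcl16 was at 3.60 per kilobase and its receptor Cxcr6 at 0.225. Ccl20 was at 0.944, and Ccr6 was under the count minimum. Ccl25, which draws gut-homing lymphocytes, was at 0.832 and its receptor Ccr9 at 0.0586. Cxcl12, a stromal chemokine, at 0.915 stood near its receptor Cxcr4 at 0.788.

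Values within a group varied widely in many of these genes. The SD of log2 CPM within groups had a median over members of 0.42, from 0.09 for Il6st to 0.80 for Il22ra2, and exceeded 0.5 for 17 members. At low counts this SD includes counting noise, whose share was not tested. Il6st had 719 to 1229 counts a library and Il22ra2 had 1 to 40. Only 31 members had 10 counts or more in every library.

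At 30 μg/kg, 3 genes of the family listed as epithelial chemokine ligands changed, though their source among the cells of the scrapings was not tested. No interleukin or receptor gene passed the threshold of an adjusted p under 0.05 with at least a 1.5-fold change (edgeR quasi-likelihood test, Benjamini-Hochberg adjustment over 16496 genes). Cxcl14 rose, and Ccl20 and Cxcl16 fell. The 3 of 60 tested members made 5%, beside a background of 6.16% of all tested genes. By adjusted p alone 3 members passed as higher (5%) and 3 as lower (5%), beside 6.00% and 5.02% of all genes. The median log2 fold change of the members was -0.04 and that of all genes was -0.0022, with 27 members above 0 and 33 below. At an unadjusted p under 0.05 there were 12 of 60 members (20%), beside 4458 of 16496 genes.

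**Figure D2:**
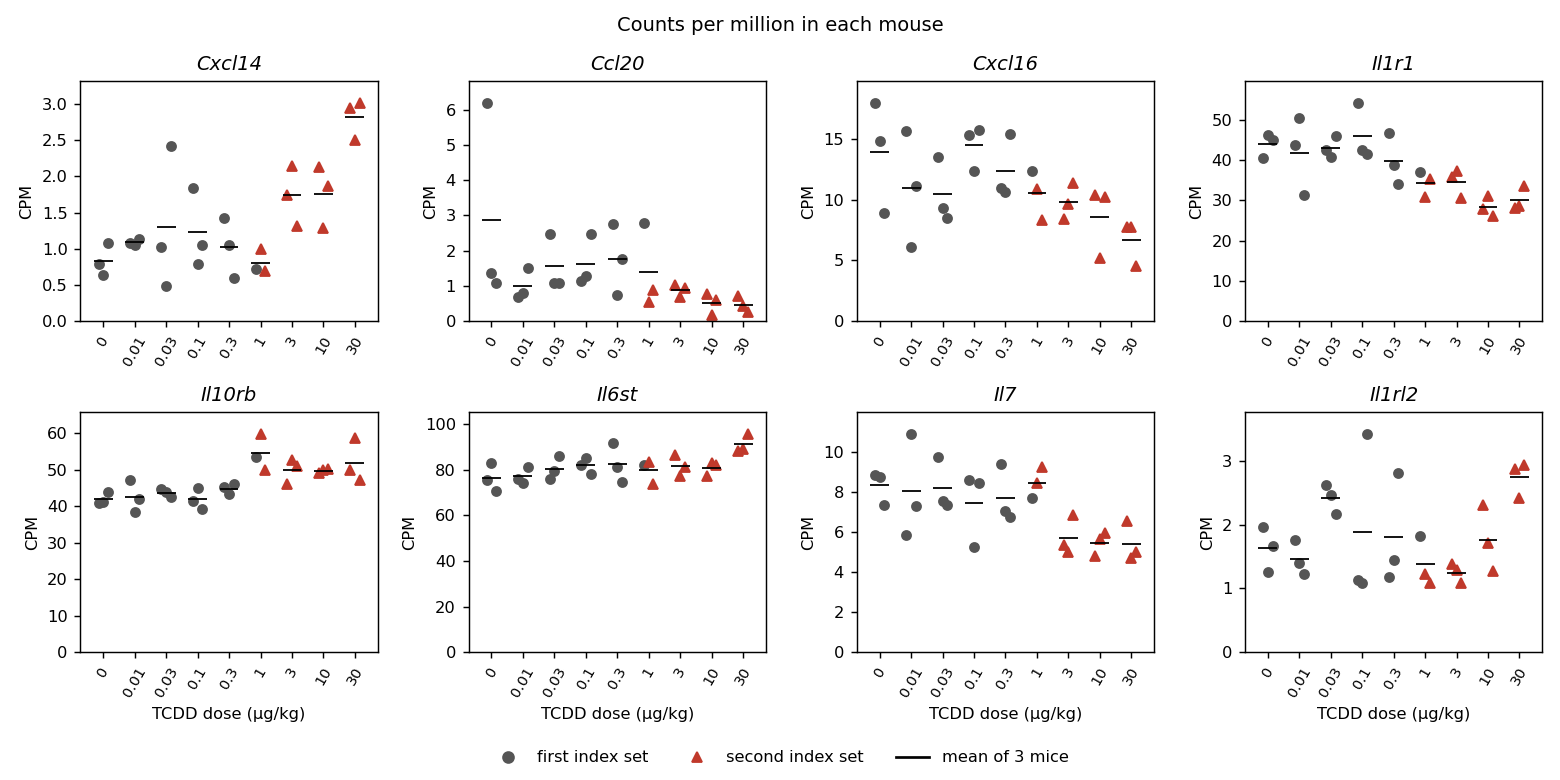
CPM of 8 members in each of the 27 mice by dose of TCDD in μg/kg, with a bar at the mean of each group and the 2 sets of library indices marked. Cxcl14 is highest at 30 μg/kg, where its 3 mice lie between 2.51 and 3.02 CPM, and Il1r1 is lower at 10 and 30 μg/kg than in vehicle.

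Cxcl14, an ancient chemokine of epithelia with antimicrobial activity, lies at chr13:56288643-56296551 on the minus strand of GRCm38. Its levels were 0.787, 0.632 and 1.08 CPM in the vehicle mice and 2.95, 2.51 and 3.02 CPM at 30 μg/kg. Every mouse at 30 μg/kg stood above every vehicle mouse, and above every mouse of the other groups. Its counts were low, from 6 to 41 a library. The log2 fold change was 1.74 (SE 0.42, adjusted p = 0.0107), a 3.35-fold rise. Levels at 3 μg/kg were 1.75, 2.14 and 1.32 CPM and at 10 μg/kg 2.13, 1.28 and 1.86 CPM, all above the vehicle mice, with log2 differences of 1.04 (adjusted p = 0.24) and 1.07 (adjusted p = 0.19). Single mice at 0.03 μg/kg (2.41 CPM), 0.1 μg/kg (1.84 CPM) and 0.3 μg/kg (1.42 CPM) also stood above the vehicle mice and within or above the range at 3 and 10 μg/kg.

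Ccl20, which the epithelium over lymphoid follicles secretes to draw CCR6-bearing dendritic cells and lymphocytes, lies at chr1:83116766-83119167 on the plus strand. Its levels were 6.20, 1.37 and 1.08 CPM in vehicle and 0.719, 0.418 and 0.259 CPM at 30 μg/kg. The groups did not overlap, but mouse 2 of the vehicle group stood far above all 26 other libraries. The log2 fold change was -2.58 (SE 0.70, adjusted p = 0.0208), a 5.97-fold fall, on counts of 2 to 63 a library. The call was lost without mouse 2 (-1.34, adjusted p = 0.28), without mouse 66 (adjusted p = 0.0687) or mouse 67 (adjusted p = 0.083) at 30 μg/kg, in limma voom (-2.17, adjusted p = 0.0746), with only the groups compared in the fit (adjusted p = 0.075) and with a term for the libraries' index set (-0.67, adjusted p = 0.79). Adjusted p over the alternatives ran from 0.0048 to 0.79. At 10 μg/kg the levels were 0.768, 0.171 and 0.597 CPM, with a log2 difference of -2.47 (SE 0.70, adjusted p = 0.0519).

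Cxcl16, a membrane-bound chemokine and scavenger receptor of epithelial cells and macrophages, lies at chr11:70453983-70459984 on the minus strand, with an exon that overlaps Zmynd15 on the other strand. Its levels were 18.01, 14.9 and 8.93 CPM in vehicle and 7.77, 7.78 and 4.57 CPM at 30 μg/kg. The groups did not overlap, although the lowest vehicle mouse lay near the highest treated mice. The log2 fold change was -1.05 (SE 0.31, adjusted p = 0.0326), a 2.07-fold fall. The call was lost without mouse 2 or mouse 3 of the vehicle group and without mouse 66 or mouse 67 at 30 μg/kg, with log2 fold changes from -0.81 to -1.29 when a mouse of the 2 groups was left out. It was also lost in limma voom, with only the groups compared and with the term for the index set, and adjusted p over the alternatives ran from 0.0108 to 0.53. At 10 μg/kg, the levels were 10.4, 5.22 and 10.2 CPM, overlapping vehicle. For each of the 3 genes the exact two-sided permutation test of 3 mice against 3 gave p = 0.1, the smallest it allows.

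The other genes of the epithelial chemokine list did not pass. Ccl28 was at 189, 131 and 137 CPM in vehicle and 141, 106 and 89.3 CPM at 30 μg/kg (log2 difference -0.44, SE 0.21, adjusted p = 0.19). With a mouse of the 2 groups left out, its difference ran from -0.64 to -0.24. Ccl25 differed by 0.07 on the log2 scale, with a 95% interval from -0.28 to 0.41. Of the epithelial chemokine ligands, 5 of 9 genes were members, 1 rose and 2 fell. In every other family the count of calls at 30 μg/kg was 0.

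**Figure D3:**
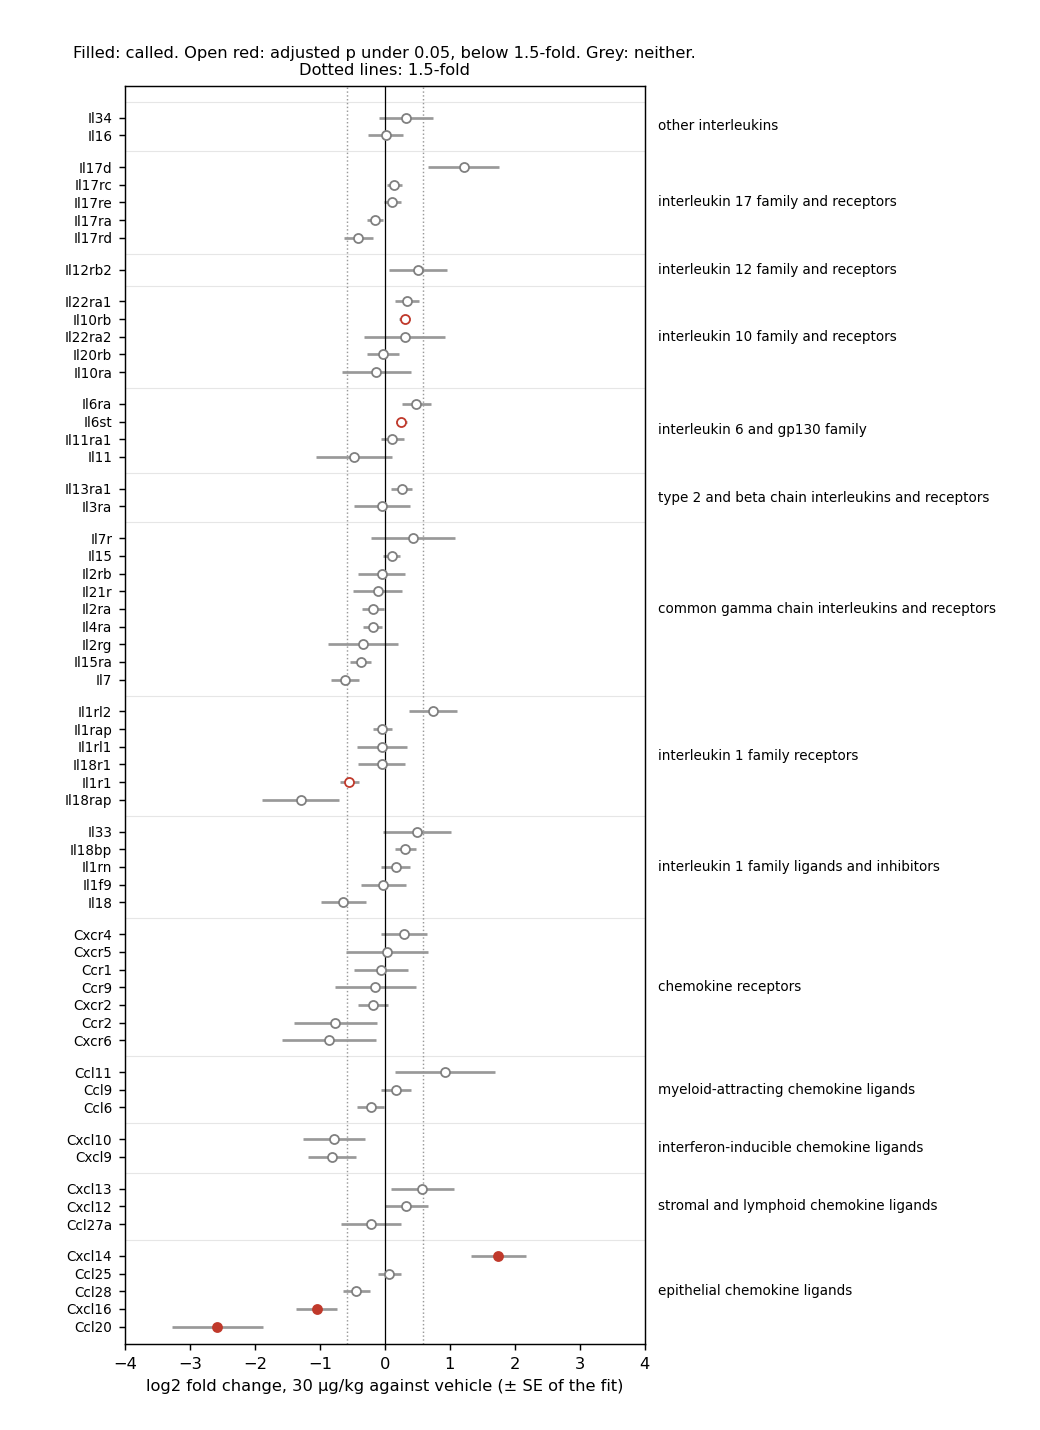
Log2 fold change of tested members at 30 μg/kg against vehicle, with lines of 1 SE on either side, grouped by family, where filled points passed the threshold, open red points passed the adjusted p at less than 1.5-fold, grey points passed neither and dotted lines mark 1.5-fold. The 3 filled points, Cxcl14, Ccl20 and Cxcl16, are all in the family listed as epithelial chemokine ligands, and the open red points are Il10rb, Il6st and Il1r1.

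Il1r1, the signalling receptor for IL-1α and IL-1β, was the interleukin receptor gene called at 10 μg/kg. It lies at chr1:40225080-40317257 on the plus strand, in a cluster with Il1rl2, Il1rl1, Il18r1 and Il18rap. Its levels were 40.6, 46.3 and 44.96 CPM in vehicle, 27.8, 31.0 and 26.2 CPM at 10 μg/kg and 28.1, 28.6 and 33.6 CPM at 30 μg/kg. All 6 mice of the 2 highest doses stood below all 3 vehicle mice. It fell 1.55-fold at 10 μg/kg, by a log2 fold change of -0.63 (SE 0.15, adjusted p = 0.0166), and was the 1 member called at that dose. That is 1.67% of 60 members beside a background of 1.78%. The call at 10 μg/kg was lost without mouse 57 or without mouse 59. At 30 μg/kg its log2 difference of -0.55 (SE 0.14, adjusted p = 0.0179) amounted to 1.46-fold, short of the fold threshold.

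Among its neighbours, Il18rap, the accessory chain for IL-18, differed by -1.30 (SE 0.59, adjusted p = 0.16), or by -0.67 without mouse 2, and Il1rl2, the IL-36 receptor, by 0.74 (SE 0.36, adjusted p = 0.19). Il18r1 and Il1rl1, the IL-33 receptor, differed by -0.05 each, with SEs of 0.37 and 0.38. In the interleukin 1 family of ligands and inhibitors, Il18 was at 43.5, 26.2 and 24.0 CPM in vehicle and 24.4, 20.9 and 14.9 CPM at 30 μg/kg (log2 difference -0.64, SE 0.35, adjusted p = 0.25, or -0.31 without mouse 2). Its soluble inhibitor Il18bp differed by 0.32 (SE 0.16, adjusted p = 0.21), the IL-1 receptor antagonist Il1rn by 0.16 (SE 0.22), and the alarmin Il33 by 0.49 (SE 0.53).

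Il10rb and Il6st, both shared receptor chains with little spread between mice, passed the adjusted p at 30 μg/kg at less than 1.5-fold. Both passes were lost in some alternatives, where adjusted p ran from 0.0155 to 0.36 for Il10rb and from 0.024 to 0.21 for Il6st. Il10rb, which serves IL-10, IL-22 and IL-28 receptors, was at 40.8, 41.3 and 43.98 CPM in vehicle and 49.9, 58.8 and 47.3 CPM at 30 μg/kg (log2 difference 0.31, SE 0.09, adjusted p = 0.0278). Il6st, the gp130 chain of the IL-6 family, was at 75.6, 82.7 and 70.6 CPM in vehicle and 88.4, 89.2 and 95.7 CPM at 30 μg/kg (log2 difference 0.26, SE 0.08, adjusted p = 0.0419). For each, the 30 μg/kg mice stood above the vehicle mice without overlap. Their partners did not pass. Il22ra1 differed by 0.34 (SE 0.19) and Il6ra by 0.48 (SE 0.22), with adjusted p of 0.25 and 0.16. Without mouse 66 the difference of Il22ra1 was 0.086.

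The common gamma chain family held the next member in order of p. Il7, an epithelial growth factor for lymphocytes, was at 8.86, 8.75 and 7.36 CPM in vehicle and 6.54, 4.68 and 5.00 CPM at 30 μg/kg. The groups did not overlap and the log2 difference was -0.62 (SE 0.22, adjusted p = 0.0713). Il15ra, which presents IL-15 to neighbouring lymphocytes, differed by -0.37 (SE 0.16, adjusted p = 0.12), while Il15 differed by 0.11, with an interval from -0.15 to 0.37. Il7r on the lymphocyte side differed by 0.43 (SE 0.65) on 8 to 22 counts a library.

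In the interleukin 17 family, Il17d, whose receptor lies outside these families, differed by 1.21 (SE 0.54, adjusted p = 0.15). Il17rc, Il17ra and Il17re, whose products form the receptors for IL-17A, IL-17F and IL-17C, differed by 0.15, -0.16 and 0.11, with SEs of 0.11 to 0.13. Il13ra1 differed by 0.26, with an interval from -0.06 to 0.58. The 8 chemokine receptors, mostly leukocyte genes at low counts, ranged from -0.86 for Cxcr6 to 0.30 for Cxcr4, with SEs up to 0.72. The interferon-inducible Cxcl9 and Cxcl10 differed by -0.81 (SE 0.37) and -0.78 (SE 0.48). Cxcl12 differed by 0.33 and Cxcl13, the chemokine of B cell follicles, by 0.58, with SEs of 0.33 and 0.48. With a mouse left out these ran from 0.12 to 0.46 and from 0.41 to 0.75. Ccl6 and Ccl9, adjacent genes on chromosome 11, differed by -0.22 and 0.17, and Ccl6 by -0.37 to -0.077 with a mouse left out. Il22ra2, whose product binds IL-22 in solution, differed by 0.31 (SE 0.63), and its mice at 30 μg/kg spanned 0.335 to 2.88 CPM.

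Below 10 μg/kg no member passed. At 3 μg/kg the edgeR count was 0 of 60 members (background 0.697%), and DESeq2 and limma voom also gave 0. At an unadjusted p under 0.05 there were 12 members (20%), beside 16.0% of all genes. Leaving out 1 mouse of the 2 groups gave 6 to 13, with 6 without mouse 2 (10%, beside 11.3% of all genes), 7 without mouse 3 and 8 without mouse 49 or 51. At 1 μg/kg it was 0 (background 0.200%), and 0 by DESeq2 and limma voom, with 4 members (6.67%) at an unadjusted p under 0.05 beside 9.80% of all genes, or 2 to 6 with 1 mouse of the 2 groups left out. The smallest adjusted p at 1 μg/kg, 0.0788, was that of Il10rb, at 53.6, 59.9 and 50.1 CPM against 40.8 to 43.98 CPM in vehicle. At 0.01, 0.03, 0.1 and 0.3 μg/kg the count was 0 at each dose in edgeR, DESeq2 and limma voom, as it was among all genes in edgeR (background 0%). At an unadjusted p under 0.05 there were 6, 1, 5 and 1 members (10%, 1.67%, 8.33% and 1.67%), beside 6.35%, 4.64%, 6.37% and 5.19% of all genes. These counts ranged from 0 to 8, 1 to 4, 2 to 6 and 0 to 5 when 1 mouse of the 2 groups was left out, and were 0, 1, 2 and 0 without mouse 2. Between 3 and 30 μg/kg no member passed in any of the 3 tools (background 0.461%), and 7 (11.7%) had an unadjusted p under 0.05, beside 10.97% of all genes, or 4 (6.67%, beside 8.47%) without mouse 51.

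Over all doses, 11 of 60 members (18.3%) had a slope on the rank of dose at an adjusted p under 0.05, beside a background of 23.4%. The slopes were upward for Cxcl14, Il10rb, Il13ra1, Il17rc, Il18bp and Il6st, and downward for Ccl20, Cxcl16, Il17rd, Il1r1 and Il7. The smallest p belonged to Il1r1, with a slope of -0.08 log2 units per dose step (SE 0.01, adjusted p = 0.00012). Il10rb had a slope of 0.04 (SE 0.01, adjusted p = 0.000565), Cxcl14 of 0.17 (SE 0.04, adjusted p = 0.0027), Il7 of -0.08 (SE 0.02, adjusted p = 0.0044) and Ccl20 of -0.24 (SE 0.06, adjusted p = 0.0067). Without the 10 and 30 μg/kg groups, Il10rb alone passed. Il17rd, a receptor-like regulator of IL-17 and growth factor signalling, is named here because it passed, after its values were seen.

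The libraries carry 2 sets of indices, read from the order in which index barcodes recur, and the sets follow the dose. In the first set are 16 mice, those given vehicle or up to 0.3 μg/kg together with mouse 41 of the 1 μg/kg group, and in the second the 11 others. With a term for the set, which separates set from dose only through the 3 mice at 1 μg/kg, 0 members passed in edgeR at 30 μg/kg, at 10 μg/kg or for the slope, with 3, 2 and 5 at an unadjusted p under 0.05. In the same fit 731, 58 and 11 of 16496 genes passed, with 3389, 2575 and 2539 at an unadjusted p under 0.05 (20.5%, 15.6% and 15.4%). So set and dose cannot be told apart for the comparisons of 3, 10 and 30 μg/kg with vehicle. Within the first set no slope of a member passed in edgeR (background 0.00606%), with 2 of 60 members at an unadjusted p under 0.05, Il10rb and Il17rc, beside 1274 of 16496 genes. No other tool was run on these fits. Within the second set Cxcl14 and Il1rl2 passed, 2 members beside a background of 2.95%. The slope of Cxcl14 there was 0.48 per dose step (SE 0.11, adjusted p = 0.0317), and in the first set 0.01 (SE 0.10). Il1rl2, named after its values were seen, had a slope of 0.46 (SE 0.09, adjusted p = 0.019) in the second set, where it was at 2.88, 2.43 and 2.93 CPM at 30 μg/kg and 1.38, 1.29 and 1.09 CPM at 3 μg/kg. A mouse of the first set at 0.1 μg/kg stood higher, at 3.42 CPM. Il7 within the second set was at 8.44 and 9.24 CPM at 1 μg/kg and at 5.33, 4.97 and 6.82 CPM at 3 μg/kg, with a slope of -0.20 (SE 0.07, adjusted p = 0.14). Within the second set, the slopes of Il10rb (-0.02, SE 0.03), Il17rc (-0.05, SE 0.04) and Il18bp (-0.02, SE 0.05) had the opposite sign to those over all doses, and within the first set those of Cxcl16 (0.0043, SE 0.06) and Il17rd (0.05, SE 0.06). Il10rb at 1 μg/kg was at 53.6 CPM in the mouse of the first set, between the 59.9 and 50.1 CPM of the second.

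**Figure D4:**
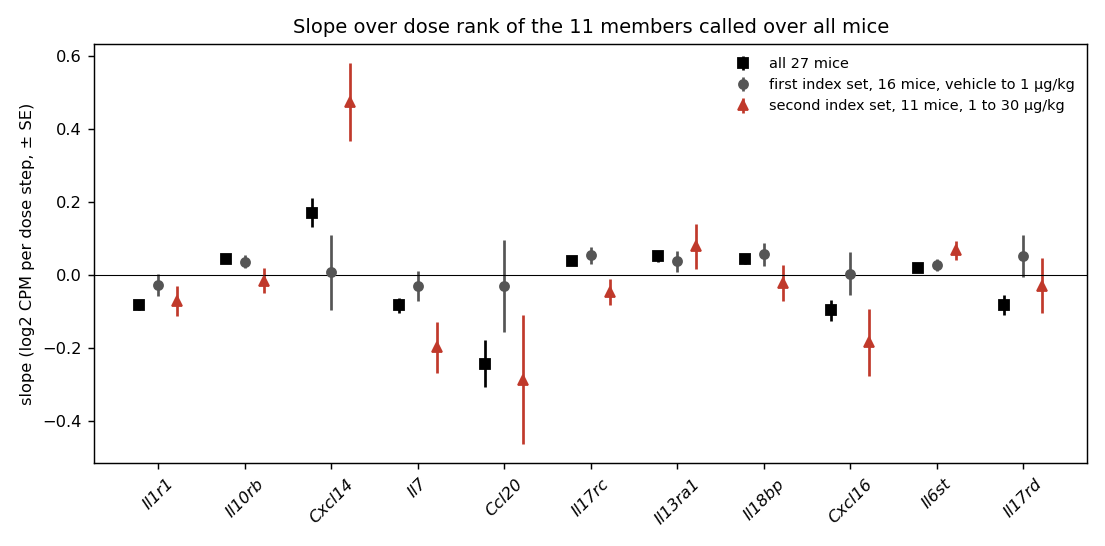
Slope per dose step, in log2 units with lines of 1 SE on either side, of the 11 members with a slope over all doses, fitted over all 27 mice and within each set of indices. The slope of Cxcl14 is 0.48 in the second set and 0.01 in the first.

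Several members varied with a marker of position along the colon. Genes of the posterior Hox clusters mark the distal colon, and their list of 9 genes (6 tested, with Hoxb13 and Hoxa13 the most abundant) summed to between 41.2 and 265 CPM in single mice. Within a group the widest span was at 10 μg/kg, from 59.3 to 265 CPM. In vehicle the sums were 212, 93.2 and 92.2 CPM, and at 30 μg/kg 197, 126 and 100.1 CPM. None of the 6 genes passed at 30 μg/kg. In a fit with the dose groups and the log2 sum of the list, chosen after the data were seen, 11 of 60 members (18.3%) passed for the list, beside a background of 10.2%.

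**Figure D5:**
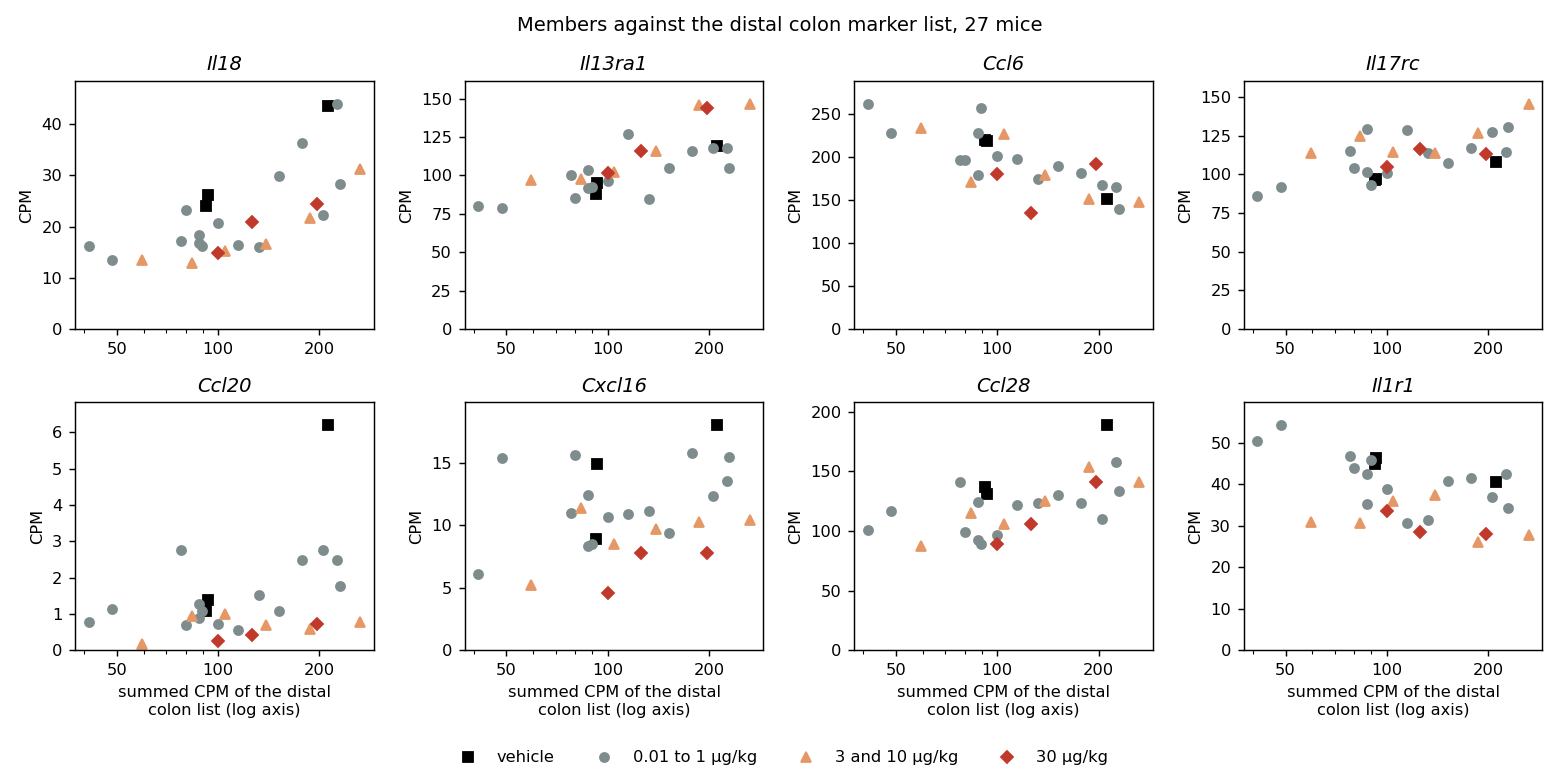
CPM of 8 members against the summed CPM of the distal colon Hox list on a log axis, 1 point for each of 27 mice, with symbols for dose. Il18 and Il13ra1 are higher and Ccl6 and Il1r1 lower in mice with a higher sum, and the 30 μg/kg mice lie below others of a similar sum for Cxcl16.

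Of these, 8 were higher and 3 lower with a higher sum, and the values are log2 changes per doubling of the sum at a given dose. Il18 changed by 0.55 (SE 0.07, adjusted p = 6.91e-06). At 0.03 μg/kg, the mice with sums of 226, 152 and 89.6 CPM had Il18 at 44.01, 29.8 and 16.2 CPM. At 10 μg/kg, sums of 265, 187 and 59.3 CPM went with 31.1, 21.7 and 13.4 CPM. At 0.01 μg/kg this order was not kept, with 16.0 CPM at a sum of 133, 23.3 CPM at 80.1 and 16.1 CPM at 41.2. Il13ra1 changed by 0.24 (SE 0.04), Il17rc by 0.15 (SE 0.03) and Ccl28 by 0.24 (SE 0.06). Ccl20 changed by 0.81 (SE 0.20, adjusted p = 0.0091) and Cxcl16 by 0.37 (SE 0.09, adjusted p = 0.007). Il34, a ligand of the CSF1 receptor, and Il1rl2 were the others that were higher, and these and Ccl9 are named because they passed, after their values were seen. Ccl6 (-0.28, SE 0.05, adjusted p = 0.00037), Ccl9 (-0.28, SE 0.07) and Il1r1 (-0.16, SE 0.04) were lower. Of the 8 members highest per kilobase, Il18, Il17rc, Il13ra1 and Ccl28 were thus higher and Ccl6 lower in mice with more of the distal markers.

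Mouse 2, the vehicle mouse with the highest Ccl20, Cxcl16, Ccl28 and Il18, was also the vehicle mouse with the highest sum of the list. With the list in the fit, Ccl20 at 30 μg/kg had a log2 fold change of -2.55 (SE 0.55, adjusted p = 0.0033), Cxcl16 of -1.10 (SE 0.24, adjusted p = 0.0036) and Cxcl14 of 1.77 (SE 0.42, adjusted p = 0.0067). Il18 passed as well, which made 4 of 60 members beside a background of 7.65%, at -0.69 (SE 0.19, adjusted p = 0.0142), where it had been -0.64 (SE 0.35, adjusted p = 0.25) without the list.

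With the summed smooth muscle list in the fit in its place, 2 of 60 members passed at 30 μg/kg (background 3.18%), Ccl20 (-3.12, SE 0.74, adjusted p = 0.015) and Il1r1 (-0.72, SE 0.15, adjusted p = 0.0057). Cxcl14 was at 1.33 (SE 0.46, adjusted p = 0.0926) and Cxcl16 at -1.09 (SE 0.35, adjusted p = 0.0713). No member passed for the muscle list itself (background 1.53%), with 5 at an unadjusted p under 0.05. DESeq2 and limma voom were not run with these terms.

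Markers of other cells differed between vehicle and the highest dose to different extents, and the adipocyte and smooth muscle lists varied widely at lower doses too. All 6 smooth muscle genes had positive log2 differences at 30 μg/kg (median 2.48) and 0 passed in edgeR, with mouse 67 highest. Of the endothelial genes, Cdh5, Kdr and Vwf of 6 tested rose. Of 4 adipocyte genes, Fabp4 and Cfd rose, and of 6 fibroblast genes, Dcn did. The adipocyte list summed to 1.48, 15.8 and 15.4 CPM in vehicle and 14.8, 33.5 and 153 CPM at 30 μg/kg. At 0.01 μg/kg it stood at 97.3, 47.9 and 51.3 CPM. The 6 tested T cell genes summed with 2 others to 9.25 to 11.5 CPM in vehicle and 8.45 to 8.95 CPM at 30 μg/kg, with 0 called. The macrophage and dendritic cell list summed to 25.4 to 31.4 CPM and 26.1 to 35.9 CPM, and the B cell and plasma cell list to 33.3 to 47.8 CPM and 30.4 to 112 CPM, with 0 called in either. The 7 genes of the neutrophil and mast cell list summed to 0.843 to 2.36 CPM in vehicle and 0.335 to 1.51 CPM at 30 μg/kg, with 0 called of the 2 tested, Mcpt1 (-3.20, adjusted p = 0.16) and Csf3r (-0.059, adjusted p = 0.96). S100a8 and S100a9 were at 0 in all 6 libraries of these groups. All 10 clock genes passed at 30 μg/kg, with 6 up and 4 down. At 3 and at 10 μg/kg, 6 passed as up and 3 as down, and from 3 to 30 μg/kg 0 passed. The part of the stromal cells and of the clock genes in the differences of the members was not tested beyond the muscle list.

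Downstream of the receptors, 5 signalling and processing genes passed the threshold at 30 μg/kg, all of them lower, and genes with a slope over dose went both ways. The shares of all genes are 6.16% at 30 μg/kg and 23.4% for the slope. For the slope, 3 genes of interleukin 1 and NF-κB signalling were up (Irak2, Traf6 and Nfkb1) and 1 was down (Nfkbiz), 2 of JAK-STAT signalling were up (Stat2 and Stat6) and 1 was down (Socs2), and 1 of the processing genes was up (Nlrp6) and 2 were down (Casp4 and Pycard). Of the 22 tested genes of interleukin 1 and NF-κB signalling, 3 fell at 30 μg/kg and none rose. They were Nfkbiz (log2 fold change -0.82, SE 0.16, adjusted p = 0.0025), an inducible nuclear IκB protein, Tnfaip3 (-0.89, SE 0.29, adjusted p = 0.0494), which encodes the deubiquitinase A20, and Zc3h12a (-0.72, SE 0.20, adjusted p = 0.0256), which encodes the ribonuclease regnase-1. Nfkbiz also fell at 10 μg/kg. Of 17 tested genes of JAK-STAT signalling, 1 fell, Socs1 (-1.25, SE 0.28, adjusted p = 0.0066), a suppressor of cytokine signalling. It went from 4.42 ± 0.50 CPM (SD, n = 3) to 1.85 ± 0.48 CPM. Of 6 tested genes that mature interleukin 1 family ligands, Casp4, the sensor of cytosolic lipopolysaccharide, fell from 46.0 ± 10.5 CPM (SD, n = 3) to 17.7 ± 3.96 CPM (log2 fold change -1.37, SE 0.22, adjusted p = 0.00044) and also fell at 10 μg/kg. Named after their values were seen, Nfkb1 (0.28, SE 0.06, adjusted p = 0.0075) and Nlrp6 (0.46, SE 0.10, adjusted p = 0.0049), a NOD-like receptor of the gut epithelium, were higher by adjusted p at less than 1.5-fold. Of 14 tested genes of the same families under other symbols, Pf4, a platelet chemokine, rose at 1.89 (SE 0.55, adjusted p = 0.0304), on at most 19 counts a library. Pf4 also had an upward slope (0.19, SE 0.04, adjusted p = 0.0025), and Cx3cr1, a chemokine receptor gene, a downward one (-0.10, SE 0.03, adjusted p = 0.0146), with a log2 difference of -0.95 (adjusted p = 0.0589) at 30 μg/kg.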

How the data were processed

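Epithelial scrapings of the colon of 27 mice were sequenced, and the authors deposited 1 table of raw read counts a mouse, without normalization. Per the submitters' processing notes, FastQC 0.11.3, Trimmomatic 0.33, TopHat2 2.1.0, SAMtools 1.2.0, HTSeq 0.6.1, DESeq and the build GRCm38 were used, and the annotation release and the use of strand are not given in the sources used here, so genes that overlap on either strand (19 members) are uncertain. The summary lines at the end of each table, among them reads without a feature (29.1 to 33.3%) and reads aligned more than 1 time (30.7 to 37.1%), entered neither library sizes nor tests. Symbols, coordinates and exon lengths came from GENCODE on GRCm38.

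Counts were analysed in R 4.3.3 with edgeR 4.0.16 (filterByExpr with a minimum count of 10, TMM factors, glmQLFit over all 9 groups and glmQLFTest), which tested 16496 genes. Adjusted p are Benjamini-Hochberg values over those genes. The threshold was an adjusted p under 0.05 with at least 1.5-fold, and for slopes and list terms the adjusted p alone. CPM values were counts scaled to library size, the sum of counts of the genes past the filter times the TMM factor. The steps were tested on simulated counts. Alternatives were RLE factors, DESeq2 1.42.0, limma voom (limma 3.58.1), no filter, only the groups compared, an index set term, an adjusted p alone, log10 dose, fewer doses and each mouse left out. Slopes within index sets and terms for 2 marker lists were added after the data were seen. Named genes were members past the threshold (at most 14 at 30 μg/kg and 5 in each other contrast), the 8 highest per kilobase, the 5 smallest p for the slope, the 10 smallest p at 30 μg/kg, and a list written down with the design, with exceptions stated, and the choice of receptor partners, family examples and called list genes came after their values were known. The members and the gene lists were chosen with earlier results of these data known. Intervals cover 1.96 SE, and replicates are separate mice. 1 member is counted but not reported singly here, in text or plots.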

Additional observations from a re-analysis of the deposited data

How the results depend on the processing

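The 3 members called at 30 μg/kg became 1, Cxcl14, in limma voom and with only the groups compared, 0 with the index set term and 6 by adjusted p alone, and leaving out each mouse in turn gave 1 to 4 (1 without mouse 66, Cxcl14). The 1 member called at 10 μg/kg became 2 in DESeq2 and 2 with no filter (Ccl20 and Il1r1), 0 with the index set term, and 0 to 1 with a mouse left out. At 3 μg/kg the 0 became 1 with only the groups compared (Il18). The 11 slopes became 0 with the index set term, 1 from vehicle to 3 μg/kg, 0 within the first index set and 2 within the second. RLE factors gave 3, 1 and 11 members at 30 μg/kg, at 10 μg/kg and for the slope. At 30 μg/kg, the distal list term gave 4 members (all genes 7.65%) and the smooth muscle term 2 (all genes 3.18%). For these changes the cause was not tested. The fits within sets and those with a mouse left out also had fewer samples.

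Log2 differences at 30 μg/kg were compared between settings for 29 members, those named by the rule above. Of differences that missed the threshold, Ccr9 (1.02), Il17re (-0.022) and Il18rap (0.0013) changed sign with the index set term. In limma voom Il22ra2 did (-0.095). With a mouse left out the differences ranged from -0.032 to 0.20 for Ccl25, from -0.43 to 0.11 for Ccr9, from -0.20 to 0.091 for Il1rl1, from -0.036 to 0.30 for Il1rn and from -0.77 to 0.76 for Il22ra2. The call of Cxcl14 at 30 μg/kg was lost with the index set term (1.51, adjusted p = 0.35) and with the smooth muscle term (1.33, adjusted p = 0.0926). No paired analysis was possible because no number is shared between groups, every mouse having its own. Depth limits members such as Ccr2, Ccr9, Il11 and Il33, since 3 counts are 0.209 to 0.322 CPM and these lay near that level.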
